A study of Mus musculus with 8 samples.

Results

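The Wnt ligands, their receptors and their modulators were examined in the pharyngeal mesoderm and hearts of mouse embryos lacking Isl1. The 50 genes were chosen by symbol from the 20701 gene symbols of the count table: every Wnt, Fzd, Sfrp and Dkk gene with a numbered symbol, together with Frzb, Wif1, Lrp5, Lrp6, Ror1, Ror2, Ryk, Ctnnb1, Axin2, Lef1, Tcf7, Tcf7l1 and Tcf7l2. Tissue was dissected from C57BL/6 embryos at E8.75 with 6 somites, and each RNA-seq library held the RNA of 1 embryo. The first group had the genotype Isl1-/- and came from a knockout mouse line (4 embryos, here knockout or KO), and the other was wild-type (4 embryos), so p-values measure the spread between embryos. Isl1 is a LIM-homeodomain transcription factor that marks second heart field progenitors, and the comparison asked how the canonical and non-canonical arms of Wnt signalling stood without it.

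Wnt proteins are secreted lipid-modified ligands that bind frizzled receptors. In the canonical branch, frizzled and the co-receptors Lrp5 and Lrp6 stabilise beta-catenin (Ctnnb1), which enters the nucleus and acts with TCF and LEF factors. In the non-canonical branches, ligands such as Wnt5a and Wnt11 act through Ror1, Ror2, Ryk and planar cell polarity proteins on cell shape and movement. Both branches are known to take part in heart development, the canonical one in expansion of second heart field progenitors and the non-canonical one in growth of the outflow tract.

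Isl1, the targeted gene, was checked first. It stood between 9.72 and 26.9 CPM in wild-type embryos and between 1.78 and 2.40 CPM in knockout embryos, where CPM is the TMM-scaled count per 1000000 reads. Its log2 fold change, knockout over wild-type, was -3.00 (SE 0.36, edgeR FDR 0.0041). Library totals ran from 18916452 to 26153039 counts. Summed over 10 markers of heart muscle, the level was 3006 to 4476 CPM in wild-type and 1612 to 2436 CPM in knockout embryos, without overlap. All 10 markers were lower and 8 of them passed the FDR. In bulk tissue, fewer cells of a type and less RNA per cell cannot be told apart, and the part of this difference in the Wnt results was not tested. Wild-type embryo 3 stood apart from the other wild-type embryos, with the lowest summed heart muscle markers (3006 CPM), the lowest summed primitive erythroid markers (363 CPM against 1148 to 2323 CPM) and the highest summed caudal markers (29.4 CPM against 12.1 to 17.3 CPM). Knockout embryos had 1232 to 3065 CPM of the erythroid markers. Their caudal markers summed to 19.6 to 28.4 CPM, below wild-type embryo 3 and above the other wild-type embryos. Of the 7 caudal markers, 3 (Cdx4, Hes7 and Msgn1) were at 0 in at least 1 embryo. Values without this embryo are given for some members, not for every member whose value moved.

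The promoters of Wnt2, Wnt11 and Sfrp5 are shown first, because these are the 3 members whose values were lower in every knockout embryo than in every wild-type embryo. Each sequence runs 5′ to 3′ on the strand of the gene, from 250 bases before the annotated start to 50 bases after it, and is taken from RefSeq on GRCm38.p6, a later build than the mm9 of the count table. Capitals mark GATAA or its reverse complement TTATC (the core bound by GATA factors), CTTTGAT or ATCAAAG (the core bound by TCF and LEF factors) and TAAT or ATTA (the core bound by LIM-homeodomain factors). Wnt2 lies at chr6:18030396-18030695, minus strand. The 2 annotated starts of Wnt11 lie at chr7:98834862-98835161 and chr7:98838595-98838894, plus strand, and Sfrp5 lies at chr19:42202203-42202502, minus strand.
Wnt2: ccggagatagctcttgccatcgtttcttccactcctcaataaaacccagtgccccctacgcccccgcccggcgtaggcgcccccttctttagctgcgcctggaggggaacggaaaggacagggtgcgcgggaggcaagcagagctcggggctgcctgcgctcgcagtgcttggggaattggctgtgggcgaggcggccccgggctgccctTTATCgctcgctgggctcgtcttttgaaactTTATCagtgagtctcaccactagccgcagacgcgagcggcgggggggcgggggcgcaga
Wnt11, upstream start: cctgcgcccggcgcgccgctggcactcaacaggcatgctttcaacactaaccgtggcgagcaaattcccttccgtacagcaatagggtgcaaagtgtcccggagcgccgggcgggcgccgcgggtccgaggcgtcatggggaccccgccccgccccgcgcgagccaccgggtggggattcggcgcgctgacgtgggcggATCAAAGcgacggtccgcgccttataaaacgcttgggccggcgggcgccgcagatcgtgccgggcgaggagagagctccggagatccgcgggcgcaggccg
Wnt11, downstream start: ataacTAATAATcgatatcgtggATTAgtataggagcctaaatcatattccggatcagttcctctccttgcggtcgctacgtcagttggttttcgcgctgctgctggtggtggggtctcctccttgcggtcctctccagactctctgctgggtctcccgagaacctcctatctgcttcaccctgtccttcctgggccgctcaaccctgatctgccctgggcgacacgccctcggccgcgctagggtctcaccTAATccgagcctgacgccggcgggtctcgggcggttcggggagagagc
Sfrp5: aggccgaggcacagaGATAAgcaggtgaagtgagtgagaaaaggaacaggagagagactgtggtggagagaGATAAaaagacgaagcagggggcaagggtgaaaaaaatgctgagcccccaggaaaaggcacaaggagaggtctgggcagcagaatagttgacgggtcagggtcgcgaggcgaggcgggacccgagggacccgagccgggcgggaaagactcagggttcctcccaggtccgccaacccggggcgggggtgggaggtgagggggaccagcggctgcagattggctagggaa

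The Wnt2 window held 2 GATA cores and no TCF/LEF or LIM-homeodomain core, and the Sfrp5 window also held 2 GATA cores and neither of the others. The upstream Wnt11 window held 1 TCF/LEF core, written in reverse complement, and the downstream window held 4 LIM-homeodomain cores. RefSeq windows were matched for 36 of the 50 members, 45 windows in all. The GATA core stood in 15.6% of these windows and in 25.4% of all 32851 mouse windows, the TCF/LEF core in 4.44% and 3.73%, and the LIM-homeodomain core in 26.7% and 58.0%. Besides Wnt11, Wnt5b was the only matched member with the TCF/LEF core. The LIM-homeodomain core holds only A and T, and these shares were not adjusted for base composition. The windows printed above were 59.3 to 71.3% G and C. Such matches describe letters and are not shown to be bound sites.

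Of the 50 members, 46 had enough counts to be tested, and 1 passed the FDR of 0.05: Wnt2, lower in the knockout. Over all 14075 genes tested, 0.973% passed. A change of at least 1.5-fold (0.58 on the log2 scale, up or down) together with an unadjusted p under 0.05 was found for 4 members, Wnt2, Wnt11 and Wnt9b lower and Wnt9a higher. They were 8.70% of the members tested, beside 3.93% of all genes. Wnt2 lay barely past this fold. It dropped below it with the DESeq2 test or size factors, with no filter on low counts and with Y-linked expression as a covariate. It also did so without wild-type embryo 2 and without knockout embryo 1. With no filter, Sfrp4 passed in place of Wnt2. The count ran from 3 to 5 over the alternatives. An unadjusted p under 0.05 was found for 8 members (17.4%), 3 higher and 5 lower, beside 17.4% of all genes. For 5 members the ranges of both genotypes were fully apart (10.9%), beside 10.3% of all genes. The shares by unadjusted p and by overlap were thus close to the background. Without wild-type embryo 3, an unadjusted p under 0.05 was found for 12 members (26.1%), beside 23.8% of all genes. Wif1 then joined the members past the fold (log2 fold change 1.31, edgeR FDR 0.0804). It did so on few reads, 5 to 11 in the other wild-type embryos and 11 to 22 in knockout embryos. Across the 46 members, 28 were higher and 18 lower, with a median log2 fold change of 0.05 beside 0.01 over all genes.

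**Figure D1:**
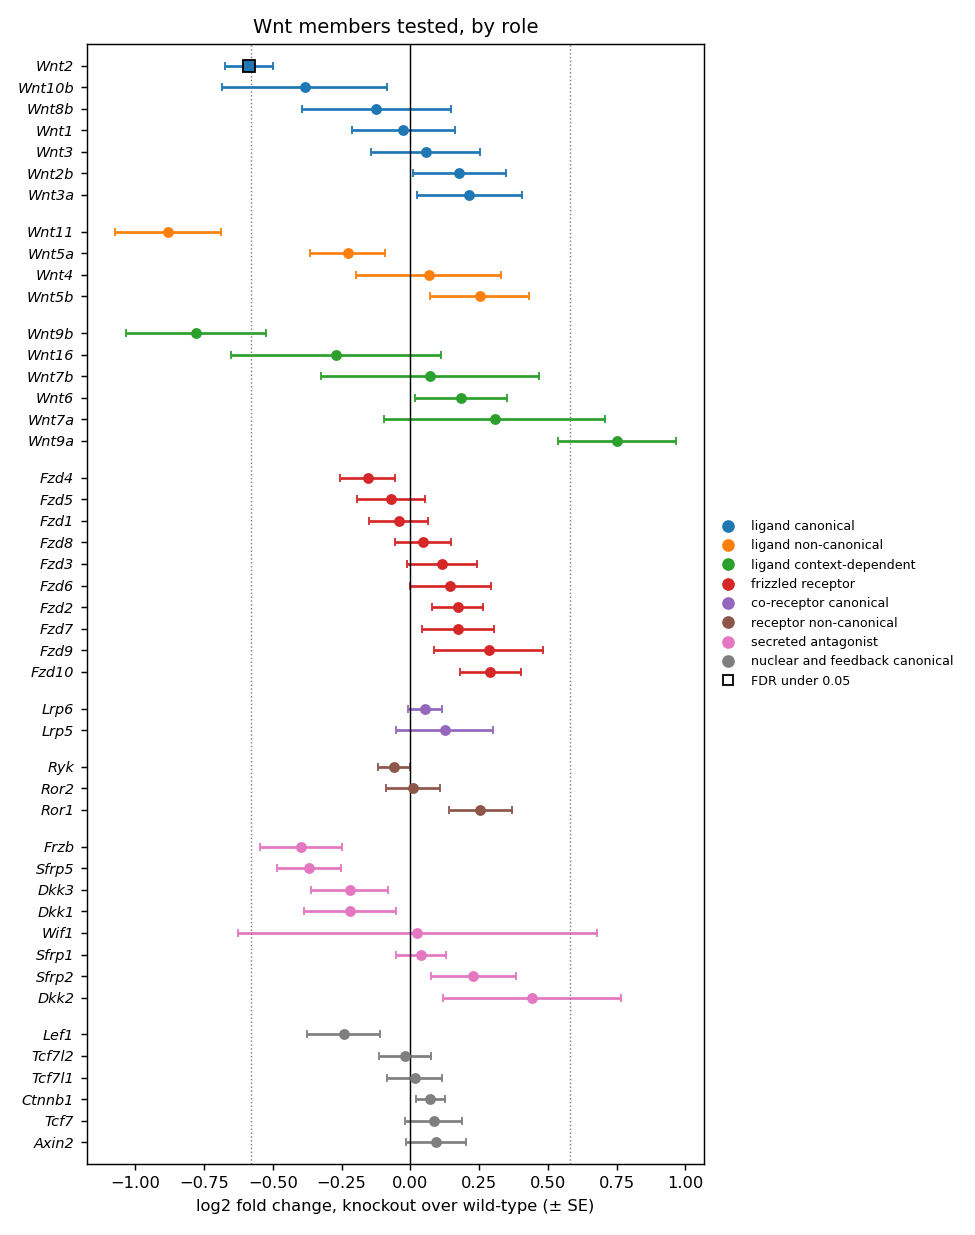
Log2 fold change of the 46 tested members, knockout over wild-type, with the standard error as bars, coloured by role (4 embryos per genotype). Dotted lines mark 0.58 in either direction. The outlined square, at -0.59, is Wnt2, the only member past the FDR; Wnt11 and Wnt9b lie to its left and Wnt9a lies beyond the right line.

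The canonical and non-canonical members were compared as classes. The canonical class held 17 genes, 9 ligands with Lrp5, Lrp6, Ctnnb1, Axin2, Lef1, Tcf7, Tcf7l1 and Tcf7l2. Of its 15 genes tested, 9 were higher and 6 lower in the knockout, with a median log2 fold change of 0.05. Only Wnt2 passed the FDR (6.67% beside 0.973% of all genes). It was also the only one with an unadjusted p under 0.05 (6.67% beside 17.4% of all genes). The non-canonical class held 7 genes, Wnt4, Wnt5a, Wnt5b, Wnt11, Ror1, Ror2 and Ryk. Of these, 4 were higher and 3 lower, with a median of 0.01, and none passed the edgeR FDR, while 2 (Wnt11, lower, and Ror1, higher) had an unadjusted p under 0.05 (28.6% beside 17.4% of all genes). The Wald test of DESeq2 called 1 of them, Wnt11, beside 5.04% of all genes. Both medians stood close to the 0.01 of all genes, and the classes were compared by counts and medians without a test. In each class the log2 fold change farthest from 0 was the negative value of a ligand, -0.59 for Wnt2 in the canonical and -0.88 for Wnt11 in the non-canonical class. The remaining 26 members were frizzleds, secreted antagonists and ligands that act by context, and 15 of their 24 tested genes were higher and 9 lower, with a median of 0.06.

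Wnt2 (NM_023653, mm9 chr6:17938940-17980585, minus strand) encodes a canonical ligand of the cardiac inflow region and of the mesoderm around the foregut. Wild-type embryos 1 to 4 had 39.7, 45.5, 37.9 and 40.6 CPM. Knockout embryos 1 to 4 had 24.6, 27.6, 29.7 and 27.3 CPM. Every knockout embryo was below every wild-type embryo, and both groups were narrow. The mean fell from 40.9 ± 3.27 to 27.3 ± 2.08 CPM (SD, n = 4), or to 66.7%, a log2 fold change of -0.59 (SE 0.09, edgeR FDR 0.0118). By exact two-sided permutation p was 0.0286, as low as 4 against 4 embryos allow. Every gene whose groups do not overlap (10.3% of all genes) has this p. The call was lost without knockout embryo 4, when the log2 fold change was -0.59 and the edgeR FDR 0.0547. Without wild-type embryo 3 the log2 fold change was -0.62 (edgeR FDR 0.0104). For comparison, the log2 fold changes of the 10 heart muscle markers ran from -1.40 to -0.65.

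In 6 markers of the venous pole and proepicardium, the region where Wnt2 is known to be expressed, 3 genes were higher and 3 lower. Of these, 1 passed the FDR, Hcn4, the pacemaker channel of the sinus node, with a log2 fold change of -1.29 (edgeR FDR 0.00186). The sum of the 6 ran from 77.6 to 175 CPM in wild-type and from 79.4 to 111 CPM in knockout embryos, and the groups overlapped. Aldh1a2 was the largest part of it, at 31.5 to 116 CPM in wild-type and 48.5 to 71.6 CPM in knockout embryos. Hcn4 itself did not overlap, at 25.2 to 34.8 CPM and 11.1 to 13.7 CPM. The part of this region in the decrease of Wnt2 was not tested.

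**Figure D2:**
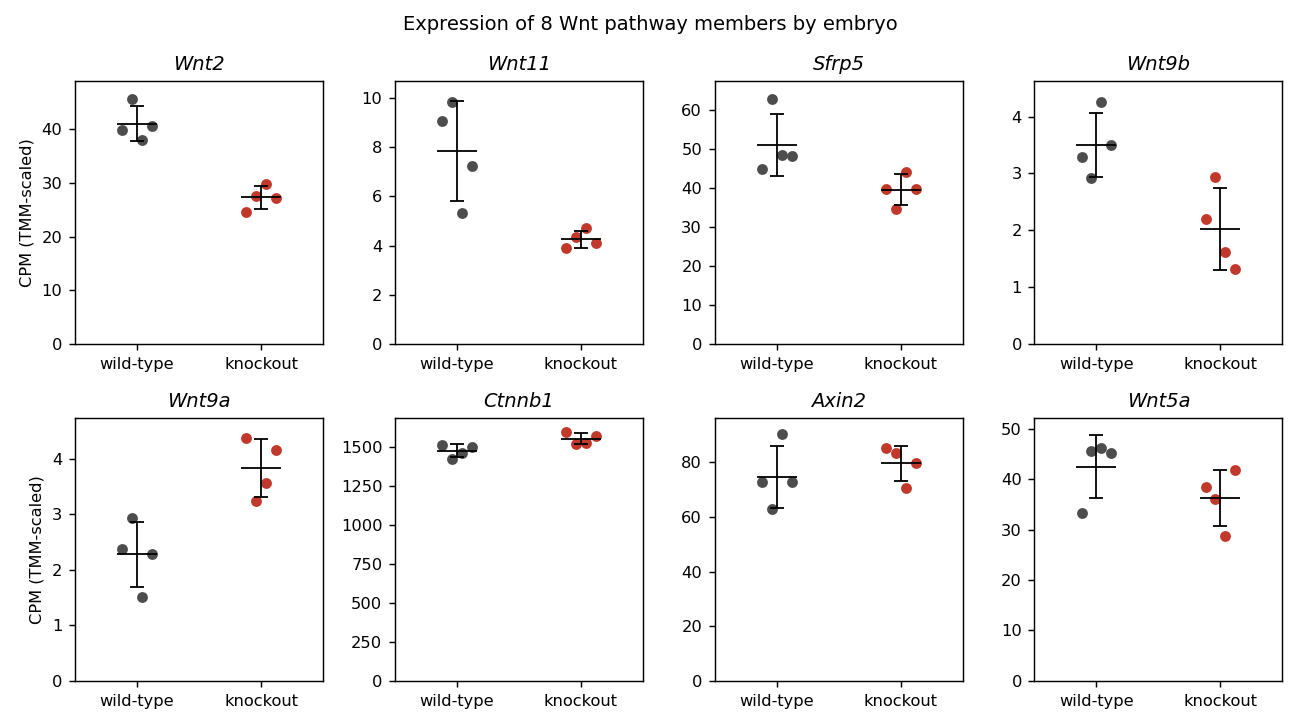
CPM (TMM-scaled, vertical axes from 0) of 8 members in each of 4 wild-type (grey) and 4 knockout (red) embryos, with the mean and SD as black bars. The groups are apart for Wnt2, Wnt11, Sfrp5, Wnt9a and Ctnnb1, touch for Wnt9b, and overlap for Axin2 and Wnt5a.

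Wnt2 was also the most abundant Wnt ligand per transcript length. Its level was 11.3 ± 0.794 RPKM in wild-type and 7.82 ± 0.548 RPKM in knockout embryos (SD, n = 4), where RPKM is the read count per 1000000 reads and per kilobase of transcript length. It made up 27.6, 26.5, 29.8 and 25.2% of the summed RPKM of all 19 ligands in wild-type embryos 1 to 4. In knockout embryos 1 to 4 its share was 16.2, 20.8, 23.1 and 20.1%. Canonical ligands together made up 51.4 to 56.5% of the ligand RPKM in wild-type and 43.9 to 50.9% in knockout embryos, ranges that did not meet. With Wnt2 left out, a sum chosen after the values were seen, the other canonical ligands summed to 9.43 to 12.0 RPKM in wild-type and 9.30 to 13.9 RPKM in knockout embryos, which overlapped. The non-canonical share ran from 26.4 to 29.1% in wild-type and from 27.2 to 30.5% in knockout embryos and overlapped. Ligands that act by context held 14.4 to 21.4% in wild-type and 21.7 to 25.6% in knockout embryos, ranges that also did not meet. Their summed RPKM overlapped, at 5.06 to 9.95 and 7.95 to 10.3. All these shares are parts of the same total, so a fall in one goes with a rise elsewhere. The sum over all ligands was 41.6 ± 5.37 RPKM in wild-type and 39.3 ± 3.39 RPKM in knockout embryos (SD, n = 4).

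**Figure D3:**
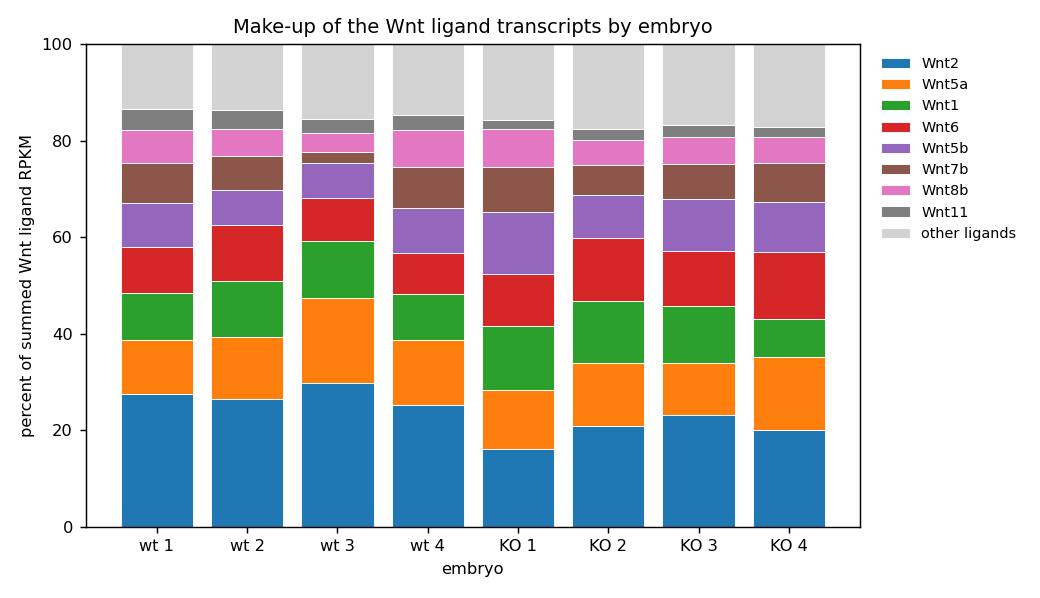
Share of each Wnt ligand in the summed ligand RPKM of each embryo (percent, stacked bars, 4 wild-type embryos on the left and 4 knockout embryos on the right). The lowest segment, Wnt2, takes 25.2 to 29.8% in wild-type and 16.2 to 23.1% in knockout embryos.

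The other canonical ligands did not pass the test. Wnt1, a ligand of the midbrain and dorsal neural tube, was next in abundance at 4.41 RPKM in wild-type and 4.51 RPKM in knockout embryos, with a log2 fold change of -0.02 (SE 0.19, edgeR FDR 0.957). Wnt2b, the closest relative of Wnt2, had 6.93 ± 1.37 CPM in wild-type and 7.84 ± 0.938 CPM in knockout embryos (SD, n = 4). Its log2 fold change was 0.18 (SE 0.17, edgeR FDR 0.624), opposite in sign to that of Wnt2. The remaining 4 that were tested, Wnt3, Wnt3a, Wnt8b and Wnt10b, ranged from -0.38 for Wnt10b to 0.22 for Wnt3a, while Wnt8a and Wnt10a were too low to test. Wnt8b, a forebrain ligand, stood at 7.96 CPM in wild-type embryo 3 and at 15.3 to 19.4 CPM in the other wild-type embryos. The sum of 10 neural tube markers was 421 CPM in embryo 3, within the 382 to 439 CPM of the others, but its genes moved both ways. Among wild-type embryos, Otx2 (70.7 CPM against 82.1 to 114 CPM), Pax6, Pax3 and Olig2 were lowest in embryo 3. Sox1 (51.2 CPM against 29.3 to 39.4 CPM), Sox2, Sox3, Pax2, Nkx6-1 and En1 were highest in it. Their part in the Wnt8b value was not tested. Wnt8a, a ligand of the primitive streak, had 67 reads in wild-type embryo 3 and 5 to 27 reads in the other 7 embryos.

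Among non-canonical ligands, Wnt11 (NM_001285792, mm9 chr7:105983622-106003705, plus strand), known for its part in outflow tract formation, had 9.06, 9.84, 5.31 and 7.22 CPM in the wild-type embryos, in the order 1 to 4. In knockout embryos 1 to 4 it stood at 3.90, 4.35, 4.71 and 4.11 CPM. The knockout embryos were tightly grouped and all below the lowest wild-type value, that of embryo 3. The means were 7.86 ± 2.02 and 4.27 ± 0.344 CPM (SD, n = 4), and the knockout mean was 54.3% of the wild-type mean. The log2 fold change was -0.88 (SE 0.19), with an edgeR FDR of 0.0683 that missed the threshold. The exact two-sided permutation p was 0.0286, a value fixed by the lack of overlap. By the Wald test of DESeq2 Wnt11 passed (log2 fold change -0.87, adjusted p 0.00342), beside 5.04% of all genes. Without wild-type embryo 3, which held the lowest wild-type value, it also passed (-1.03, edgeR FDR 0.011), beside 3.46% of all genes. Under the other alternatives it did not pass, with edgeR or limma FDRs of up to 0.231 (Y-linked expression as a covariate). The sum of 9 markers of pharyngeal and second heart field mesoderm, Isl1 among them, overlapped between the genotypes, at 136 to 216 CPM in wild-type and 129 to 203 CPM in knockout embryos. Of these 9, 5 were higher and 4 lower, Isl1 passed the FDR, and the values of Fgf10 (-0.55, edgeR FDR 0.148, no overlap) and Tbx1 (0.98, edgeR FDR 0.248) had opposite signs. Their part in the values of Wnt11 was not tested. Per length, Wnt11 was a minor ligand, at 1.51 RPKM in wild-type and 0.855 RPKM in knockout embryos.

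Wnt5a, the non-canonical ligand of the outflow tract and limb, was the most abundant of its class, at 5.69 RPKM in wild-type and 5.04 RPKM in knockout embryos. Wild-type embryos 1 to 4 had 33.2, 45.5, 46.1 and 45.2 CPM. In knockout embryos 1 to 4 it was 38.5, 36.1, 28.8 and 41.8 CPM. The groups overlapped through wild-type embryo 1 alone, and the log2 fold change of -0.23 (SE 0.14, edgeR FDR 0.424) did not pass. Its paralogue Wnt5b had the opposite sign, 0.25 (SE 0.18, edgeR FDR 0.504), with values of 10.3 to 16.8 CPM in wild-type and 13.5 to 21.8 CPM in knockout embryos. Wnt4 had a log2 fold change of 0.07 (SE 0.26) and stood at 3.08 CPM in wild-type embryo 3 beside 6.76 to 8.48 CPM in the other wild-type embryos. Without wild-type embryo 3 the log2 fold change of Wnt4 was -0.16 (edgeR FDR 0.527).

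A pair of weakly expressed ligands that act by context, Wnt9a and Wnt9b, had values of opposite sign that did not pass the FDR. Wnt9a (NM_139298, mm9 chr11:59120430-59147054, plus strand), known from joint and skeletal development, had 2.38, 2.93, 1.52 and 2.28 CPM in wild-type and 4.37, 3.23, 3.56 and 4.16 CPM in knockout embryos 1 to 4. All knockout values were above all wild-type values, and the log2 fold change stood at 0.75 (SE 0.22, edgeR FDR 0.129). Wnt9b (NM_011719, mm9 chr11:103588678-103611135, minus strand), a ligand of facial ectoderm and kidney ducts, had 3.30, 2.93, 4.26 and 3.50 CPM in wild-type and 2.20, 2.94, 1.62 and 1.32 CPM in knockout embryos 1 to 4. Only knockout embryo 2 reached into the wild-type range, barely above wild-type embryo 2, and the log2 fold change stood at -0.78 (SE 0.25, edgeR FDR 0.171).

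Each of these lies beside a canonical Wnt gene in mm9. Wnt9a is 16.2 kb from Wnt3a, and Wnt9b is 24.3 kb from Wnt3. The neighbours stood at log2 fold changes of 0.22 (Wnt3a, SE 0.19, edgeR FDR 0.598) and 0.06 (Wnt3, SE 0.20, edgeR FDR 0.906). In the further pairs, Wnt1 and Wnt10b lie 11.7 kb apart at -0.02 and -0.38, and Wnt6 and Wnt10a lie 6.20 kb apart, with Wnt6 at 0.18 (SE 0.17, edgeR FDR 0.612) and Wnt10a too low to test. Wnt6, a surface ectoderm ligand, and Wnt7b were the most abundant of the context-dependent group, at 4.41 and 2.93 RPKM over all embryos. Wnt7b had a log2 fold change of 0.07 (SE 0.40, edgeR FDR 0.942) with 4.42 CPM in wild-type embryo 3 and 19.2 to 22.2 CPM in the other wild-type embryos, and without embryo 3 it was -0.24. Neither Wnt7a nor Wnt16 passed, at 0.31 (SE 0.40) and -0.27 (SE 0.38), with at most 42 reads in any embryo.

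**Figure D4:**
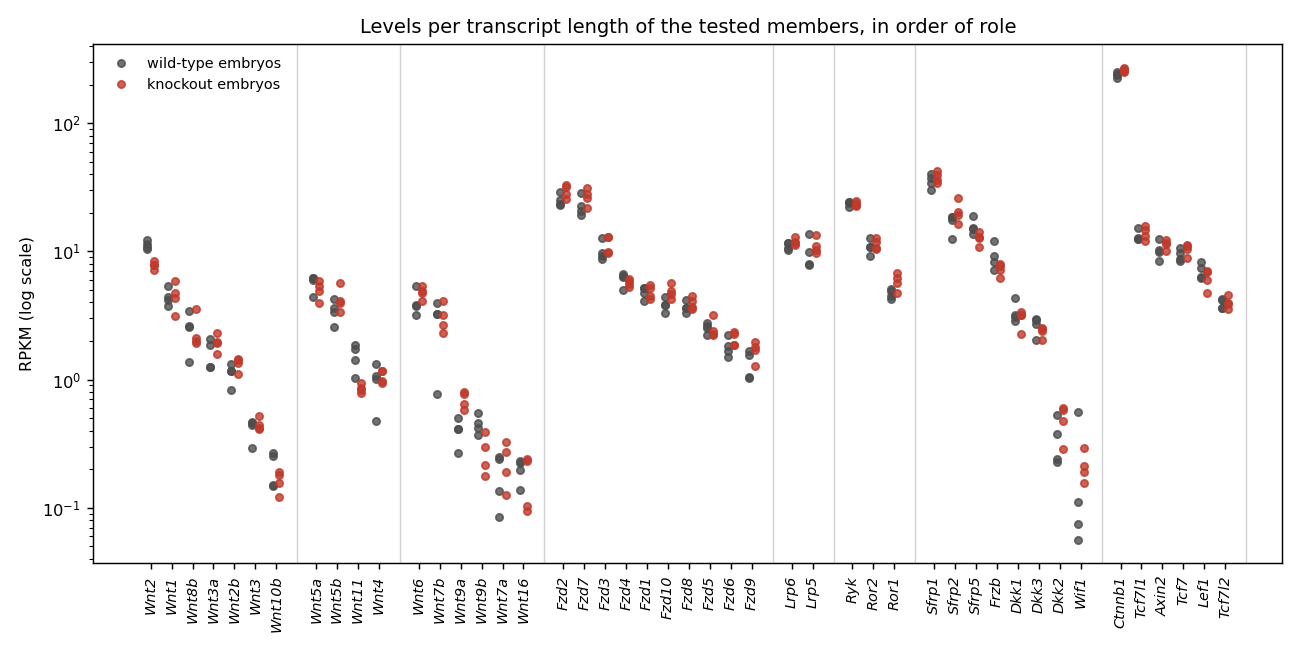
RPKM (log axis) of the 46 tested members in each wild-type (grey) and knockout (red) embryo, in blocks by role from canonical ligands on the left to nuclear and feedback genes on the right, each block in order of abundance. Ctnnb1 stands highest, at a mean of 249 RPKM, and Wnt16 lowest, at 0.183 RPKM.

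All 10 frizzled receptors were tested and none passed the edgeR FDR. An unadjusted p under 0.05 was found for 1 of the 10 (Fzd10, higher), beside 17.4% of all genes, and the Wald test of DESeq2 called none. In all, 7 were higher and 3 lower in the knockout, with a median log2 fold change of 0.13 over the family. Fzd2, Fzd7 and Fzd3 were the most abundant, at 27.4, 24.7 and 10.7 RPKM over all embryos, and together made up at least 68.1% of the frizzled RPKM in every embryo. Fzd2 had a log2 fold change of 0.17 (SE 0.09, edgeR FDR 0.375) and Fzd7 one of 0.17 (SE 0.13, edgeR FDR 0.528), which without wild-type embryo 3 were 0.24 and 0.30 (edgeR FDR 0.125 for both). Fzd10 stood at 17.3 to 22.2 CPM in wild-type and 21.5 to 27.8 CPM in knockout embryos, with a log2 fold change of 0.29 (SE 0.11, edgeR FDR 0.220). Fzd4 was on the other side, at -0.16 (SE 0.10, edgeR FDR 0.456), with 31.9 to 42.3 CPM in wild-type and 31.7 to 37.0 CPM in knockout embryos.

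The co-receptors of the canonical branch, Lrp6 and Lrp5, were at 11.5 and 10.4 RPKM over all embryos. Lrp6 had a log2 fold change of 0.05 (SE 0.06, edgeR FDR 0.690) and Lrp5 one of 0.12 (SE 0.18, edgeR FDR 0.759), which was 0.32 without wild-type embryo 3 (edgeR FDR 0.189). Among receptors of the non-canonical branch, Ryk was the most abundant at 23.6 RPKM, with a log2 fold change of -0.06 (SE 0.06, edgeR FDR 0.647). Ror2, a receptor of Wnt5a, was at 0.01 (SE 0.10, edgeR FDR 0.969), a sign that turned under several alternatives, with 63.6 to 86.2 CPM in wild-type and 68.7 to 82.5 CPM in knockout embryos. Ror1 stood at 51.2, 45.9, 48.5 and 41.6 CPM in wild-type and 53.6, 60.1, 45.3 and 64.4 CPM in knockout embryos 1 to 4. Knockout embryo 3 lay inside the wild-type range and the other 3 knockout embryos lay above it, with a log2 fold change of 0.26 (SE 0.11, edgeR FDR 0.286).

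Secreted antagonists bind Wnt proteins (Sfrp genes, Frzb and Wif1) or the co-receptors (Dkk1, Dkk2 and Dkk4). Of 10, 8 were tested, 4 higher and 4 lower, and none passed the edgeR FDR, while 2 (Sfrp5 and Frzb, both lower) had an unadjusted p under 0.05, or 25.0% beside 17.4% of all genes. The Wald test of DESeq2 called neither. Sfrp5 (NM_018780, mm9 chr19:42272461-42276742, minus strand), an antagonist of the sinus venosus and foregut, had 44.9, 62.9, 48.5 and 48.4 CPM in wild-type and 39.9, 34.7, 44.3 and 39.7 CPM in knockout embryos 1 to 4. The groups did not overlap, although knockout embryo 3 lay just below wild-type embryo 1. The knockout mean was 77.5% of the wild-type mean, at a log2 fold change of -0.37 (SE 0.12, edgeR FDR 0.162). Frzb stood at 46.4, 36.5, 60.5 and 40.6 CPM in wild-type and 37.8, 35.3, 29.9 and 36.6 CPM in knockout embryos 1 to 4, with a log2 fold change of -0.40 (SE 0.15, edgeR FDR 0.220). Without wild-type embryo 3, which held its highest value, Frzb was at -0.24 (unadjusted edgeR p 0.0593, FDR 0.230). Dkk3, at -0.22 over all embryos, was then at -0.33 (unadjusted edgeR p 0.0156, FDR 0.117).

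Sfrp1 was the most abundant antagonist, with 37.0 to 45.2% of their summed RPKM in every embryo. Its log2 fold change was 0.04 (SE 0.09, edgeR FDR 0.853), at 230 to 296 CPM in wild-type and 250 to 301 CPM in knockout embryos. Sfrp2 was next at 18.6 RPKM over all embryos, with a log2 fold change of 0.23 (SE 0.16, edgeR FDR 0.477). Dkk1, an antagonist of the canonical co-receptors, had 11.2 to 16.6 CPM in wild-type and 8.42 to 12.7 CPM in knockout embryos, with a log2 fold change of -0.22 (SE 0.17, edgeR FDR 0.531). The others ranged from -0.22 for Dkk3 to 0.44 for Dkk2, and Wif1 had a standard error of 0.65. Sfrp4 and Dkk4 were too low to test.

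Downstream of the receptors, none of the 6 canonical nuclear and feedback genes passed the edgeR FDR, none had an unadjusted p under 0.05, and the Wald test of DESeq2 called none. Ctnnb1 was the most abundant member, at 1517, 1427, 1466 and 1503 CPM in wild-type and 1601, 1522, 1530 and 1569 CPM in knockout embryos 1 to 4. Its groups did not overlap, but the difference was small, a knockout mean of 105% of wild-type, with a log2 fold change of 0.07 (SE 0.05, edgeR FDR 0.517). Axin2, a feedback inhibitor and a common readout of canonical signalling, had 72.7, 62.9, 90.3 and 72.7 CPM in wild-type and 85.0, 83.3, 70.7 and 79.6 CPM in knockout embryos 1 to 4. All knockout values lay inside the wild-type range, whose top was wild-type embryo 3, and 3 of the 4 knockout embryos were above the other wild-type embryos. The log2 fold change stood at 0.09 (SE 0.11, edgeR FDR 0.693), and without wild-type embryo 3 it was 0.20 (edgeR FDR 0.194).

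Lef1, a nuclear partner of beta-catenin and itself a known target of the branch, had the lowest log2 fold change of this group, -0.24 (SE 0.13, edgeR FDR 0.381), with 39.6 to 51.2 CPM in wild-type and 28.6 to 42.2 CPM in knockout embryos. Tcf7l1, a repressing TCF factor, was at 0.02 (SE 0.10, edgeR FDR 0.947). Tcf7 and Tcf7l2 were at 0.09 and -0.02. Beside the decrease of Wnt2, the log2 fold changes of these known targets, Axin2 and Lef1, had opposite signs and neither passed the test.

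A wider list of 83 genes of Wnt secretion, modulation, transduction, targets and planar cell polarity was counted in the same fit. Of 81 tested, 50 were higher and 31 lower, with a median log2 fold change of 0.07. None passed the edgeR FDR, 10 had an unadjusted p under 0.05 (8 higher and 2 lower, 12.3% beside 17.4% of all genes), and the Wald test of DESeq2 called none. Of these, 3 were also past the 1.5-fold threshold, all higher: Notum, Rnf43 and Prickle4 (3.70% beside 3.93% of all genes). Without wild-type embryo 3, 2 passed the edgeR FDR, Celsr3 and T, both higher, beside 490 of all 14179 genes tested (3.46%). T, a marker of the tail bud, was highest in wild-type embryo 3, at 15.2 CPM, beside 7.19 to 10.8 CPM in knockout embryos.

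Among these genes were several inhibitors that act at the ligand and receptor level, and those named here had low FDRs in their sublists. In the R-spondin axis, which holds Rnf43, 4 of 8 tested genes were higher. Among the other extracellular modulators, which hold Kremen1, 6 of 10 were higher. Notum, an enzyme that removes the lipid from Wnt proteins, had a log2 fold change of 0.67 (SE 0.27, edgeR FDR 0.238), with 1.26 to 3.25 CPM in wild-type and 3.32 to 3.86 CPM in knockout embryos. Rnf43, a ubiquitin ligase that clears frizzleds from the membrane, was at 0.65 (SE 0.21, edgeR FDR 0.174), with 1.63 to 2.22 CPM in wild-type and 2.28 to 3.82 CPM in knockout embryos. Both are also known canonical targets. Neither pair of groups overlapped, as was the case for 4 of the 81 genes (4.94%), beside 10.3% of all genes. Kremen1, a receptor of Dkk proteins, was at 0.21 (SE 0.08, edgeR FDR 0.197) and also did not overlap. Of the genes that make and carry Wnt proteins, Porcn was at 0.44 (SE 0.20, edgeR FDR 0.287) and Wls at -0.10 (SE 0.06, edgeR FDR 0.399).

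In the R-spondin axis, Rspo3, a ligand that strengthens canonical signalling, had a log2 fold change of -0.56 (SE 0.28, edgeR FDR 0.334), and Lgr4, a receptor for it, 0.15 (SE 0.08, edgeR FDR 0.347). In the cytoplasm, the lowest FDRs were those of Amer1 (0.19, edgeR FDR 0.238), Gsk3b, the kinase that marks beta-catenin for decay (-0.17, edgeR FDR 0.276), and Dvl2 (0.16, edgeR FDR 0.295). In the nucleus they were those of Pygo1, a beta-catenin co-factor whose groups did not overlap (0.49, edgeR FDR 0.166), Tle2 (0.43, edgeR FDR 0.319) and Bcl9l (-0.14, edgeR FDR 0.526). Of the other extracellular modulators, Tpbg and Kremen2 followed Kremen1, with edgeR FDRs of 0.402 and 0.415. The target gene Ccnd1, a cyclin, was at -0.20 (SE 0.10, edgeR FDR 0.326). Of 13 canonical target genes tested in this wider list, 9 were higher and 4 lower, with a median log2 fold change of 0.08. The higher ones were 69.2%, beside 51.2% of all genes. An unadjusted p under 0.05 was found for 2 of them, both higher (15.4% beside 17.4% of all genes).

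Of 21 planar cell polarity genes, 17 were higher and 4 lower, beside 7207 higher of all 14075 genes (51.2%), with a median log2 fold change of 0.11. None passed the edgeR FDR, 3 had an unadjusted p under 0.05 (14.3% beside 17.4% of all genes), and the Wald test of DESeq2 called none. The lowest FDRs were those of Prickle4 (0.60, edgeR FDR 0.237), Celsr3, an adhesion receptor (0.42, edgeR FDR 0.245), and Prickle1 (-0.21, edgeR FDR 0.265). Celsr3 stood at 11.0 to 19.2 CPM in wild-type and 17.0 to 22.5 CPM in knockout embryos. The core genes Vangl2 and Ptk7 were at 0.08 (SE 0.10) and 0.18 (SE 0.09).

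**Figure D5:**
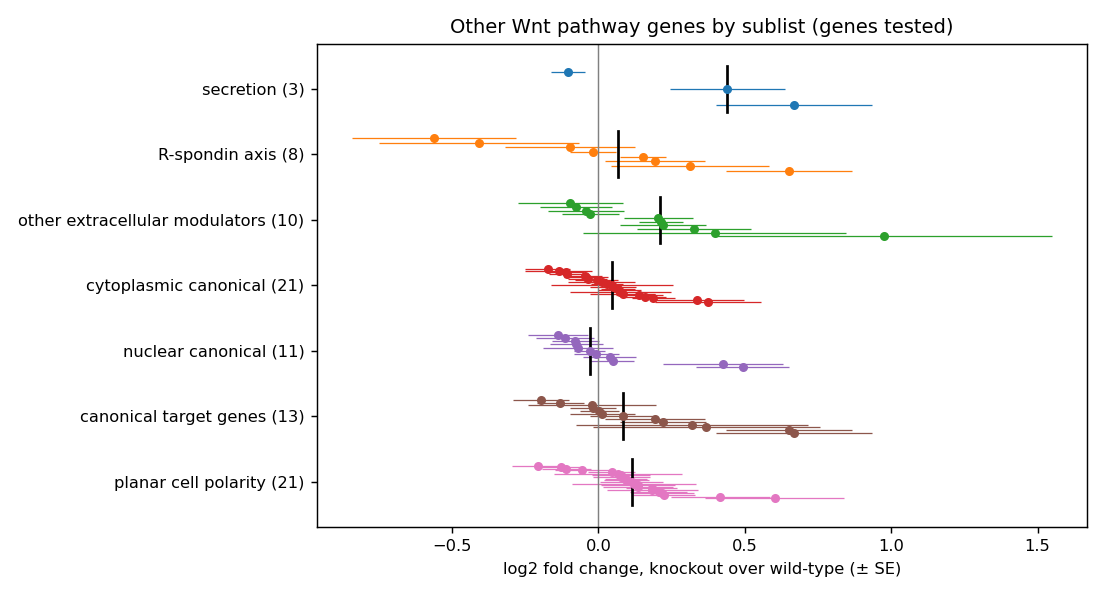
Log2 fold change, knockout over wild-type, of the other Wnt pathway genes by sublist, with the number tested in parentheses, the standard error as bars and the sublist median as a black line; a gene can stand in more than 1 sublist. The planar cell polarity median lies at 0.11, and no gene shown passed the FDR.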

How the data were processed

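RNA-seq libraries of 8 single embryos (4 Isl1 knockout and 4 wild-type, from the sample titles) were used. Libraries were made from 100 ng of RNA. Reads were mapped by the authors to mm9 with STAR (introns of 20 to 500000 bases) and counted over RefSeq exons with HOMER. The deposited count columns hold these raw, unscaled counts for each transcript. Both strands were counted, so antisense reads could not be told apart. Versions of these tools were not given in the sources used here. The authors derived the RPKM columns in edgeR, per kilobase and 1000000 reads, and recomputed values differed by at most 0.000492. The deposited length column gave transcript length in bases. Per the file headers, baseMean was a DESeq2 signal averaged over samples. The deposited log2 fold changes, their errors, the stat score and the p-value columns were the authors' own comparison and were not used. Knockout embryo 2 was labelled as total RNA, whereas the other 7 were labelled as polyA RNA.

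For each symbol the entry with the highest summed count was kept (20701 of 31507 entries). Counts were fitted with edgeR 4.0.16 in R 4.3.3 (filterByExpr, TMM, quasi-likelihood F-test, genotype as the only term, two-sided), with Benjamini-Hochberg adjustment over 14075 genes (FDR). The model was tested on simulated data. For single genes, CPM was also compared by exact two-sided permutation (smallest possible p 0.0286). Members and lists were chosen with earlier results of these data known, and the motifs after the promoters were seen. Named were Isl1, each member past the FDR, past 1.5-fold with unadjusted p under 0.05 or with groups that did not overlap, 14 members fixed by symbol, and the 2 most abundant per role; Fzd10, Ror1, Frzb and others were added for context after their values were seen. Pathway genes were named where past the FDR or among the 3 lowest FDRs of a sublist, with Wls, Vangl2 and Ptk7 added after their values were seen. Totals of 18916452 to 26153039 counts set a precision that covers counting error only, since reads carried no molecular identifiers. Pairs of libraries of 1 genotype differed by more than sampling noise (chi-square per degree of freedom at least 7.76). Gene positions came from GENCODE vM1 on mm9, and promoters from RefSeq on GRCm38.p6. Alternatives were DESeq2 1.42.0 (Wald test or size factors), no filter, the longest entry per symbol, a replicate block, Y-linked expression as a covariate, leaving out each embryo, and limma 3.58.1 on log2(RPKM + 1).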

Additional observations from a re-analysis of the deposited data

Results flagged for a closer look

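In 6 of the 92 groups of 4 embryos examined (46 members in each genotype), 1 embryo lay far from the other 3 of its genotype, and chance flags about 1 in 20 groups. Sfrp2 was at 42.8 CPM in wild-type embryo 3, below the 61.1 to 64.6 CPM of the other wild-type embryos, and Wif1 was at 2.15 CPM in the same embryo, above their 0.222 to 0.418 CPM. Wnt5a was at 33.2 CPM in wild-type embryo 1, below the 45.2 to 46.1 CPM of the others. Among knockout embryos, Wnt8b was at 19.4 CPM in embryo 1 beside 11.0 to 11.6 CPM, Dkk3 was at 11.2 CPM in embryo 1 beside 13.6 to 14.0 CPM, and Tcf7 was at 39.3 CPM in embryo 3 beside 47.3 to 48.9 CPM.

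Members below the expression filter were not part of the test, and 3 of them had more reads in a knockout embryo than in any wild-type embryo. Sfrp4 had 27 reads in knockout embryo 4 and 12 in knockout embryo 3, beside 3 to 7 reads in wild-type embryos. Wnt10a had 9 reads in knockout embryo 4 beside 2 to 6 in wild-type embryos, and Dkk4 had 4 reads in knockout embryo 2 beside 0 or 1 in wild-type embryos.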

How the results depend on the processing

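The count of members past the FDR was 1 and became 2 with the Wald test of DESeq2 (Wnt2 and Wnt11), 0 with the replicate block and 0 to 2 when single embryos were left out, with 2 without wild-type embryo 3 and 0 without knockout embryo 4. Same-numbered embryos shared only a number: their deviations correlated at 0.109, 0.212, 0.0863 and 0.507, and not every embryo correlated best with its own number. With the replicate block, Wnt2 was at -0.59 (edgeR FDR 0.0611), and over all genes 76 passed in place of 137. Over all genes 709 passed by DESeq2, 490 without wild-type embryo 3 and 70 to 138 without any other embryo. The count of other pathway genes past the FDR was 0 to 2 when single embryos were left out (2 without wild-type embryo 3). With Y-linked expression as a covariate, signs turned for Ror2 (-0.0023), Sfrp1 (-0.0556), Wnt1 (0.0241) and Wnt7b (-0.2072), and limma turned Wnt1 (0.0098). Leaving out single embryos gave ranges across 0 for Ror2 (-0.0559 to 0.0878), Sfrp1 (-0.0262 to 0.0909), Tcf7l1 (-0.0456 to 0.0897), Wnt1 (-0.1696 to 0.1179) and Wnt7b (-0.2414 to 0.2597). The class medians ran from -0.0063 to 0.0783 (canonical) and from -0.0559 to 0.0645 (non-canonical) over all alternatives. The cause of these changes was not tested.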
